A study of Homo sapiens with 21 samples.

Results

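Kinesins are motor proteins that use ATP to move along microtubules or to take microtubule ends apart. The genes described here are the protein-coding genes whose symbol is KIF with a number and an optional suffix, together with KIFC1, KIFC2 and KIFC3, and antisense genes were left out. The rule found 42 genes among the 60668 of the 2 count tables, and both tables listed all 42. By their known roles 14 were placed with the mitotic spindle and cell division, 15 with cargo transport and 13 with other roles, chiefly cilia, centrioles and microtubule ends. KIF2A was placed with other roles, although KIF2B and KIF2C were placed with division. After the filter on low counts 40 were tested in each table. KIF2B was at 0 in all 21 libraries, and KIF25 had at most 18 counts in any library.

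Dividing cells need kinesins of several families to build the spindle, move chromosomes and complete cytokinesis, and these genes are transcribed mostly in G2 and mitosis. Cargo kinesins carry vesicles, mitochondria, endosomes and messenger RNA, several of them chiefly in neurons. Ciliary and depolymerising kinesins act at the axoneme, at centrioles and at microtubule tips.

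The cells were HCC1806, an established human line labelled as triple-negative breast cancer, grown in 2D and measured by polyA-selected RNA-seq, with 7 groups of 3 libraries. The first table held 3XCTL (genotype control), 3XSR (genotype 3xSR, which the series title gives as SRSF2, SRSF3 and SRSF7 overexpressed together) and MYC-OE (MYC overexpressed). The second held 1xCtrl (a control with a single plasmid), 1xSRSF2, 1xSRSF3 and 1xSRSF7, each labelled as overexpressing that gene. SRSF2, SRSF3 and SRSF7 encode SR proteins, which act in pre-mRNA splicing, and MYC encodes a transcription factor. The control of MYC-OE was taken to be 3XCTL, from the same table, and whether both carry the same vector is not stated. The labels give neither the promoters nor the number of clones, and do not say that the libraries of a group came from separate cultures, so p-values measure the spread between these libraries.

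Library totals ran from 143269192 to 303323552 counts, so that 3 counts, taken as the detection floor, stood for 0.00947 to 0.0210 CPM (counts per mega-count of scaled library size). Intervals and floors of this kind cover counting error only. MYC measured 93.4 CPM ± 2.87 (SD, n = 3) in 3XCTL, 174 ± 5.95 in MYC-OE and 157 ± 1.72 in 3XSR. It was thus raised in MYC-OE (log2 fold change 0.90, edgeR adjusted p = 5.7e-08) and also in 3XSR (0.75, edgeR adjusted p = 4.01e-07), so the 2 lines share a higher MYC level. SRSF3 and SRSF7 were raised in 3XSR and in their own single lines, but SRSF2 failed to rise in the libraries labelled 3XSR (log2 fold change -0.06, edgeR adjusted p = 0.389) or in those labelled 1xSRSF2 (-0.16, edgeR adjusted p = 0.098). Directions given below for these 2 groups are those of the libraries so labelled. The 7 epithelial markers were each above 1 CPM in every group. Of the receptor genes listed as low in a triple-negative line, ERBB2 measured from 99.6 to 184 CPM. ESR1 measured from 6.49 to 11.5 CPM and PGR from 0 to 1.46. Of 6 fibroblast markers 4 were under 1 CPM in all groups, and their summed level was 47.4 to 49.7 CPM in 3XCTL, 28.5 to 33.0 in 1xCtrl and 15.3 to 25.8 in the other groups. Of 4 leukocyte markers 3 were under 1 CPM in all groups, with a sum of 6.19 to 11.1 CPM in 3XCTL, 9.44 to 15.7 in 1xCtrl and 16.6 to 36.5 in the others. The part of these marker genes in the kinesin results was not tested.

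The motif CCAAT was found before 11 of the 14 division genes, and 4 windows are shown because their genes are described in full below. Each is the 250 bases before the start listed by RefSeq (GRCh38.p14), which matched 34 of the 42 genes, read 5′ to 3′ on the gene's strand. Capitals mark the motif CCAAT, written as ATTGG where it lies on the other strand, and the motif TTTGAA. The E-box CACGTG was searched as well. Each search covered both strands. KIF23 lies at chr15:69414099-69414348 (+), KIFC1 at chr6:33391573-33391822 (+), KIF14 at chr1:200620752-200621001 (−), and the KIF1A window, for 1 of its 3 listed starts, at chr2:240821404-240821653 (−).
KIF23: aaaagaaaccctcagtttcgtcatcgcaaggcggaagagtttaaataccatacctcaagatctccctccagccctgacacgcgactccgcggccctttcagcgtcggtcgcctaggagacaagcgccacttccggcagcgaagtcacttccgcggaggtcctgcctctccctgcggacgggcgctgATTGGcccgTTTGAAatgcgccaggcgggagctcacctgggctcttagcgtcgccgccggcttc
KIFC1: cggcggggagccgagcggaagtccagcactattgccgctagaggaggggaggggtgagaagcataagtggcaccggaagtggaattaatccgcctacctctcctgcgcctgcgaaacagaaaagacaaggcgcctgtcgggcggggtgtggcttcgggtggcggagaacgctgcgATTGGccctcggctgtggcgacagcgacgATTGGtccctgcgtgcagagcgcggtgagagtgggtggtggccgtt
KIF14: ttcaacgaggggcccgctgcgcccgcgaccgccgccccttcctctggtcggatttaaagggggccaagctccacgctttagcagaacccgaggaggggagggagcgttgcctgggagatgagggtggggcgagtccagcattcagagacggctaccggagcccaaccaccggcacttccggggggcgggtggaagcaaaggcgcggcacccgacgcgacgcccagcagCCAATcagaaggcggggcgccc
KIF1A: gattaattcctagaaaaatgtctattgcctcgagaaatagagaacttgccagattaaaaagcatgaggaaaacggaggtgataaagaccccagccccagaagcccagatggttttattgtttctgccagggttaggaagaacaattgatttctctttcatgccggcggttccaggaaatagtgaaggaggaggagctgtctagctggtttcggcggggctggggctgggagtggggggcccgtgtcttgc
CCAAT, the sequence bound by NF-Y, began 64 bases before the start of KIF23, 75 and 46 bases before that of KIFC1 and 22 before that of KIF14. In KIF23, TTTGAA, the cell cycle homology region read by the DREAM complex, followed at 55 bases before the start. The KIF1A window held neither. CCAAT stood in at least 1 listed window of 11 of the 14 division genes (78.6%), 4 of 11 cargo genes (36.4%) and 3 of 9 others (33.3%), against 32.0% of all 35116 windows of that length. The division genes without it were KIF2B, KIF2C and KIF15. TTTGAA stood in 5 of the 14 division genes (35.7%) and 13.3% of all windows. CACGTG, the E-box read by MYC, was in none of the 43 kinesin windows and in 6.34% of all. These are matches of letters and not measured binding.

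Replicate 2 of each control had the largest median differences from its group that followed base composition, so these 2 libraries are described before the comparisons. In replicate 2 of 1xCtrl, 14 of the 15 kinesins with a transcript GC content of 55% or more lay above both other libraries of the group, with a median log2 ratio of 0.68, and all 11 kinesins under 45% GC lay below both. Replicate 2 of 3XCTL ran the other way, with 14 of the 15 GC-rich kinesins below both others (median log2 ratio -0.51) and 10 of the 11 GC-poor ones above. These bounds were chosen after the values were seen. Such counts were not particular to these 2 libraries. Of the 15 GC-rich kinesins, 14 lay above both others in MYC-OE replicate 3 (median 0.14) and 13 below in 1xSRSF7 replicate 2 (-0.23). In 1xCtrl replicate 3, compared with a mean that includes replicate 2, 13 lay below (-0.48). All 11 GC-poor kinesins lay above both others in 1xSRSF3 replicate 1 (0.12). KIFC2, a cargo gene of high GC content, shows the size of it, at 102, 199 and 86.8 CPM in the 3 libraries of 1xCtrl and 113, 77.3 and 110 CPM in those of 3XCTL. KIFC2 passed the main test in none of the 5 contrasts against a control. With each library's GC trend removed it was called lower in MYC-OE (-0.34), 1xSRSF3 (-0.37) and 1xSRSF7 (-0.40).

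**Figure D1:**
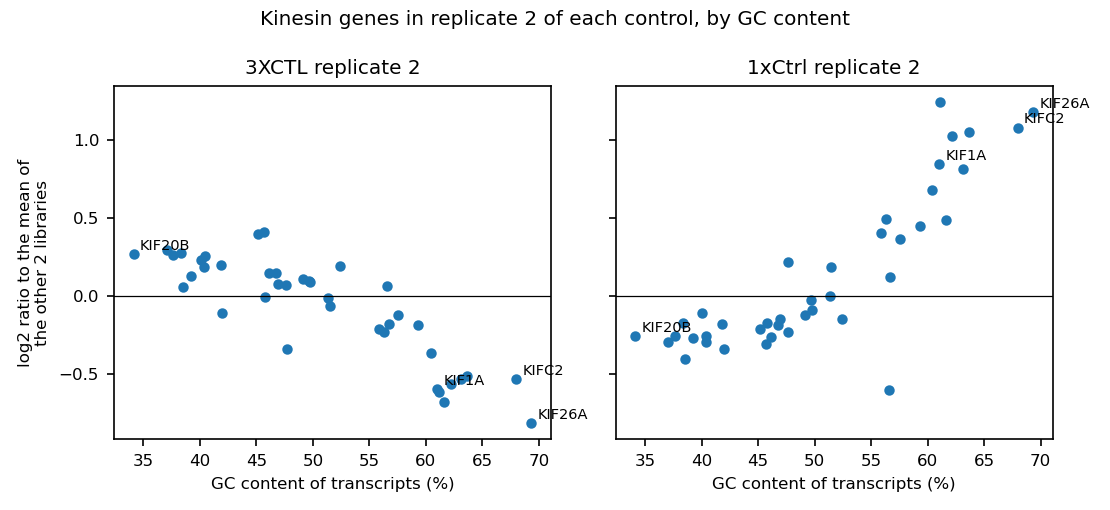
Each point is 1 tested kinesin, with the GC content of its transcripts (%) on the horizontal axis and, on the vertical axis, the log2 ratio of its CPM in replicate 2 to the mean of the other 2 libraries of the same control, with 0.1 CPM added to each. GC-rich kinesins such as KIFC2 and KIF26A lie low in 3XCTL replicate 2 (left) and high in 1xCtrl replicate 2 (right).

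The summed level of the kinesins lay between 2611 CPM ± 50.4 (SD, n = 3) in 1xSRSF7 and 2880 ± 59.3 in 3XCTL as group means. The libraries of 3XCTL (2813 to 2927 CPM) lay wholly above those of 3XSR (2618 to 2752) and MYC-OE (2676 to 2717). Those of 1xSRSF7 (2574 to 2668) lay below those of 1xCtrl (2697 to 2770), while 1xSRSF2 and 1xSRSF3 overlapped that control. These sums were not tested. Per kilobase of exon, the highest gene was KIF5B, the widely expressed heavy chain of conventional kinesin, with a mean of 49.8 CPM per kilobase over the 7 groups. It was followed by the division genes KIF20A (45.4), KIFC1 (42.9), KIF2C (39.2) and KIF11 (36.2). The ranges of group means of neighbours in this order overlapped, while that of KIF11 (33.6 to 38.1) lay below those of KIF5B (41.7 to 59.4), KIF20A (41.7 to 52.2) and KIFC1 (38.3 to 47.3). KIF1A, a neuronal vesicle motor, ranked 31 of the kinesins with 0.464 CPM per kilobase.

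Against their controls, 12 of the 40 tested kinesins passed the threshold in none of the 5 contrasts, 13 in 1, 12 in 2 and 3 (KIF1A, KIF1C and KIF21B) in 3. The threshold was an adjusted p of 0.05 in edgeR's quasi-likelihood test with Benjamini-Hochberg adjustment over all genes tested. In 3XSR 10 kinesins were called, 5 higher and 5 lower, where 29.0% of all genes tested were called, 15.3% higher and 13.7% lower. MYC-OE had 16, 9 higher and 7 lower, against 35.3% of all genes (18.0% and 17.3%). In 1xSRSF2 there were 10, 3 higher and 7 lower, against 23.5% (11.6% and 11.9%). 1xSRSF3 had 7, 3 higher and 4 lower, against 29.2% (15.0% and 14.1%). 1xSRSF7 had 3, 1 higher and 2 lower, against 17.3% (9.03% and 8.26%). As shares of the 40 these were 25%, 40%, 25%, 17.5% and 7.50%. The median log2 fold change of the 40 lay between -0.05 (1xSRSF7) and 0.02 (1xSRSF2 and 3XSR), and that of all genes between -0.03 and 0.00. The contrasts of the first table share 3XCTL and those of the second share 1xCtrl, so their values stand side by side and are not independent.

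The counts depended on replicate 2 of the controls. Without 3XCTL replicate 2, 17 kinesins were called in 3XSR (38.5% of all genes tested) and 21 in MYC-OE (37.7%). Without 1xCtrl replicate 2, 18 were called in 1xSRSF2 (30.0% of all genes), 10 in 1xSRSF3 (32.1%) and 14 in 1xSRSF7 (29.2%). The 18 of 1xSRSF2 were 9 higher and 9 lower, where the split with all libraries was 3 and 7, and the 14 of 1xSRSF7 were 7 and 7. With each library's GC trend removed, the counts were 17, 22, 18, 16 and 8 in the order 3XSR, MYC-OE, 1xSRSF2, 1xSRSF3 and 1xSRSF7. The share of all genes called was higher under this setting as well, at 33.8%, 44.1%, 34.4%, 38.6% and 29.6%. The split was then 6 higher and 11 lower in 3XSR and 9 and 9 in 1xSRSF2. In 1xSRSF3 it was 2 higher and 6 lower with upper-quartile scaling and 2 and 7 with total counts alone. Of the 46 calls against a control 23 held in every alternative setting, and every fit that left out 1 library, in which the gene was tested. One of these, KIF19 in MYC-OE, was not tested under the filter of at least 10 counts in every library.

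**Figure D2:**
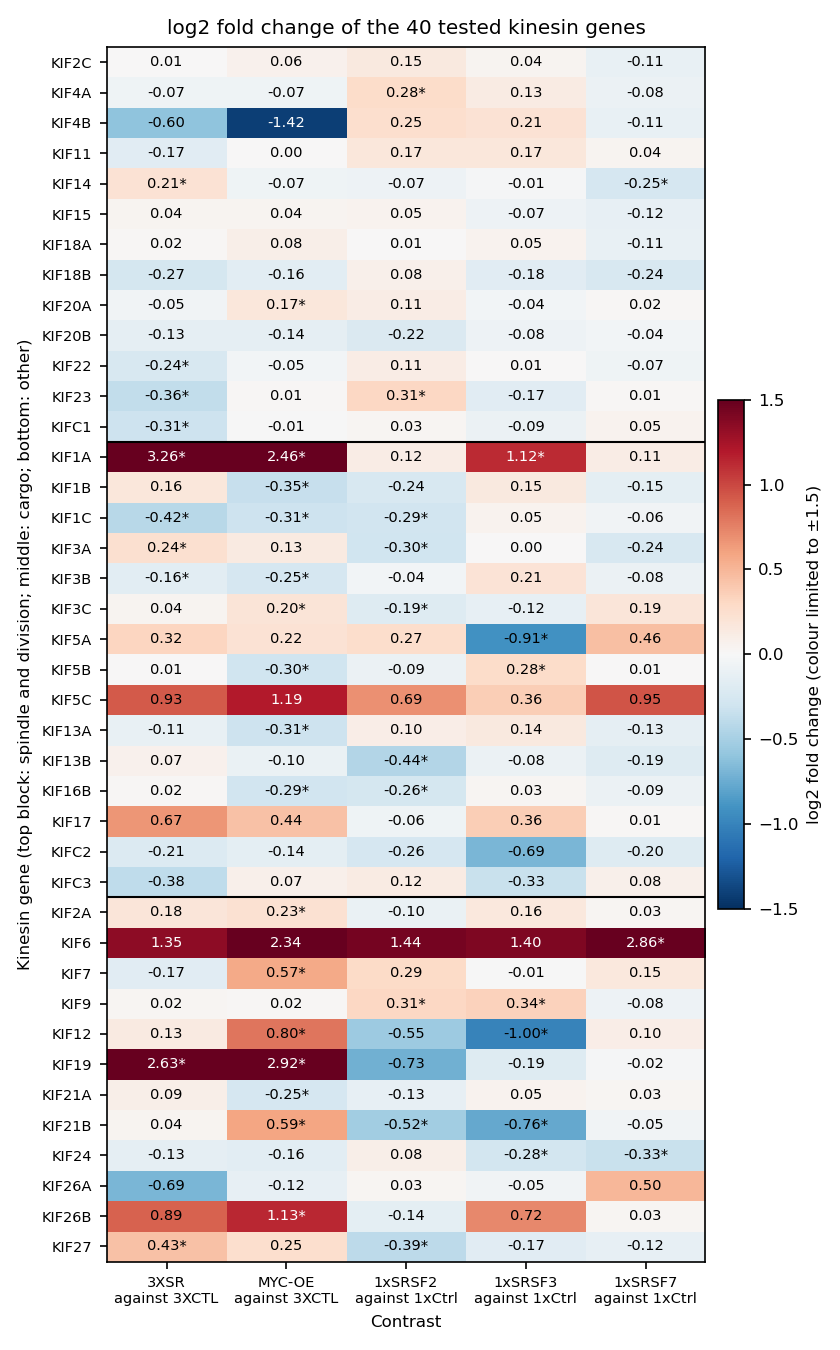
Each cell gives the log2 fold change of 1 of the 40 tested kinesins (vertical axis, in blocks by role) in 1 of the 5 contrasts against a control (horizontal axis), with the colour limited to ±1.5 and an asterisk where the edgeR adjusted p was under 0.05. KIF1A is highest in 3XSR (3.26) and MYC-OE (2.46), and the division block holds 8 asterisks over the 5 contrasts.

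Of the 14 division kinesins, KIF23 was called in opposite directions in 3XSR and 1xSRSF2. In 3XSR 4 of the 13 tested were called (30.8%, against 29.0% of all genes), 3 lower and 1 higher. The median log2 fold change over the 13 was -0.13. The counts were 1 higher in MYC-OE (7.69%, against 35.3% of all genes), 2 higher in 1xSRSF2 (15.4%, against 23.5%) and 1 lower in 1xSRSF7 (7.69%, against 17.3%). In 1xSRSF3 edgeR, DESeq2 and limma-voom called 0, where edgeR called 29.2% of all genes, and 2 had an unadjusted p under 0.05 in edgeR. That 0 depended on the setting, since KIF23 was near the threshold there and was called lower in several alternatives, given below. Their summed level was 1521 CPM ± 70.1 (SD, n = 3) in 3XCTL, 1389 ± 29.7 in 3XSR and 1524 ± 3.12 in MYC-OE. In the second table it was 1438 ± 16.8 in 1xCtrl, 1534 ± 55.5 in 1xSRSF2, 1421 ± 29.2 in 1xSRSF3 and 1383 ± 43.2 in 1xSRSF7.

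KIF23 (ENSG00000137807.15, chromosome 15 from 69414246 to 69448427, + strand, GENCODE 29 on GRCh38) encodes the motor of centralspindlin, the complex that bundles the midzone microtubules for cytokinesis. It measured 199, 221 and 186 CPM in the libraries of 3XCTL, 163, 154 and 154 in 3XSR and 203, 206 and 203 in MYC-OE. The 3 libraries of 3XSR were all below the other 6. KIF23 fell by 0.36 on the log2 scale in 3XSR (SE 0.0605, edgeR adjusted p = 0.000789), while its log2 fold change in MYC-OE was 0.01. In the second table it measured 157, 143 and 166 CPM in 1xCtrl and 196, 198 and 185 in 1xSRSF2. Here the groups did not overlap in the opposite direction, with a rise of 0.31 (SE 0.0631, edgeR adjusted p = 0.003). In 1xSRSF3 it measured 142, 137 and 136 CPM and in 1xSRSF7 155, 164 and 151, without passing the main test against 1xCtrl. The value in 1xSRSF3 was near the threshold (-0.17, edgeR adjusted p = 0.0567). It was called lower in 6 of 10 alternative settings and in all 6 fits that left out 1 library. The calls in 3XSR and 1xSRSF2 held under every alternative. RACGAP1, the other subunit of centralspindlin, named here for that role after its values were seen, had group means from 146 to 155 CPM.

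KIFC1 (chromosome 6 from 33391536 to 33409924, + strand) encodes a minus-end motor that focuses spindle poles and clusters extra centrosomes. It stood at 167, 142 and 166 CPM in 3XCTL and 127, 135 and 122 in 3XSR. All 3 libraries of 3XSR lay below all of 3XCTL. The difference on the log2 scale was -0.31 (SE 0.0667, edgeR adjusted p = 0.00475), -0.38 without 3XCTL replicate 2 and -0.18 with the GC trend removed. KIF22 (chromosome 16 from 29790719 to 29805385), a chromosome-bound motor that pushes chromosome arms toward the spindle equator, measured 128, 113 and 119 CPM in 3XCTL and 96.0, 106 and 103 in 3XSR. The groups did not overlap (log2 fold change -0.24, SE 0.0587, edgeR adjusted p = 0.00886), but with the GC trend removed the value was -0.06 and the call was lost (edgeR adjusted p = 0.251). KIFC1 and KIF22 share 424 and 561 exon bases with genes on the other strand, and the strand setting of the counting is not stated.

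KIF14 (chromosome 1 from 200551497 to 200620734, − strand), which works with citron kinase in cytokinesis, was the division kinesin called higher in 3XSR. It measured 99.6, 117 and 94.9 CPM in 3XCTL and 128, 116 and 117 in 3XSR, so the groups overlapped. The log2 fold change was 0.21 (SE 0.0726, edgeR adjusted p = 0.0435). The call was lost without any one of 3XCTL replicates 1 and 3 and 3XSR replicates 1, 2 and 3 (0.15 to 0.23), with upper-quartile scaling, total counts alone, no filter or only the groups compared (0.20 to 0.21, edgeR adjusted p from 0.0511 to 0.085), with the replicate block (0.22, edgeR adjusted p = 0.0592) and after removal of the GC trend (0.06, edgeR adjusted p = 0.303). In 1xSRSF7 it measured 102, 115 and 104 CPM against 131, 113 and 139 in 1xCtrl. These groups overlapped too, through 1xCtrl replicate 2, and the log2 fold change was -0.25 (SE 0.0776, edgeR adjusted p = 0.0382). That call was lost without 1xCtrl replicate 3 (-0.22), without 1xSRSF7 replicate 3 (-0.25), with the replicate block (edgeR adjusted p = 0.0752) and in a fit of only the groups compared, and it held without 1xCtrl replicate 2 (-0.32).

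KIF4A (chromosome X from 70290090 to 70420832), a chromosome-bound motor that also sets the length of the central spindle with PRC1, measured 72.1, 64.5 and 74.4 CPM in 1xCtrl and 87.6, 89.2 and 78.9 in 1xSRSF2. The groups did not overlap, and KIF4A rose by 0.28 (SE 0.0766, edgeR adjusted p = 0.0184). It was lost without 1xCtrl replicate 1 (0.24) and without 1xSRSF2 replicate 1 or 2 (0.21 each). PRC1 rose in the same libraries by 0.32 (SE 0.0754, edgeR adjusted p = 0.0073), and also in 1xSRSF7 by 0.33, where the value of KIF4A was -0.08 and did not pass. KIF20A, which brings the chromosomal passenger complex to the midzone, measured 185, 193 and 173 CPM in 3XCTL and 207, 207 and 206 in MYC-OE. This rise was 0.17 (SE 0.0504, edgeR adjusted p = 0.0203). It was the only call in MYC-OE among the division kinesins as placed here, and KIF2A, placed with other roles, was also called higher there. The KIF20A call was lost without 3XCTL replicate 3 (0.13) or any one library of MYC-OE (0.17 each).

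The other tested division kinesins passed in no contrast against a control in the main test. With the GC trend removed some did. KIF11 was then called in 3XSR (-0.31, edgeR adjusted p = 3.73e-05) and 1xSRSF2 (0.26), and KIF20B in 3XSR (-0.33). KIF18A was called in 3XSR (-0.14), MYC-OE (0.19) and 1xSRSF2 (0.14), and KIF15 in 1xSRSF3 (-0.15). KIF18B was called in MYC-OE (-0.23), 1xSRSF2 (0.14) and 1xSRSF7 (-0.31). KIF11, the bipolar motor that pushes spindle poles apart, had group means from 163 to 185 CPM, and its relief motor KIF15 from 41.2 to 46.5. For KIF2C, which depolymerises kinetochore microtubules, the means ran from 130 to 155 CPM, for KIF18A, which damps chromosome movements, from 78.2 to 87.0, for KIF18B from 77.5 to 102 and for KIF20B from 116 to 135. KIF4B, a copy nearly identical to KIF4A whose reads may be split with it, had means from 0.0281 to 0.0780 CPM. CENPE, a kinetochore kinesin outside the symbol rule, had means from 130 to 156 CPM and its largest log2 fold change against a control was -0.25 in 1xSRSF7 (edgeR adjusted p = 0.0539).

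**Figure D3:**
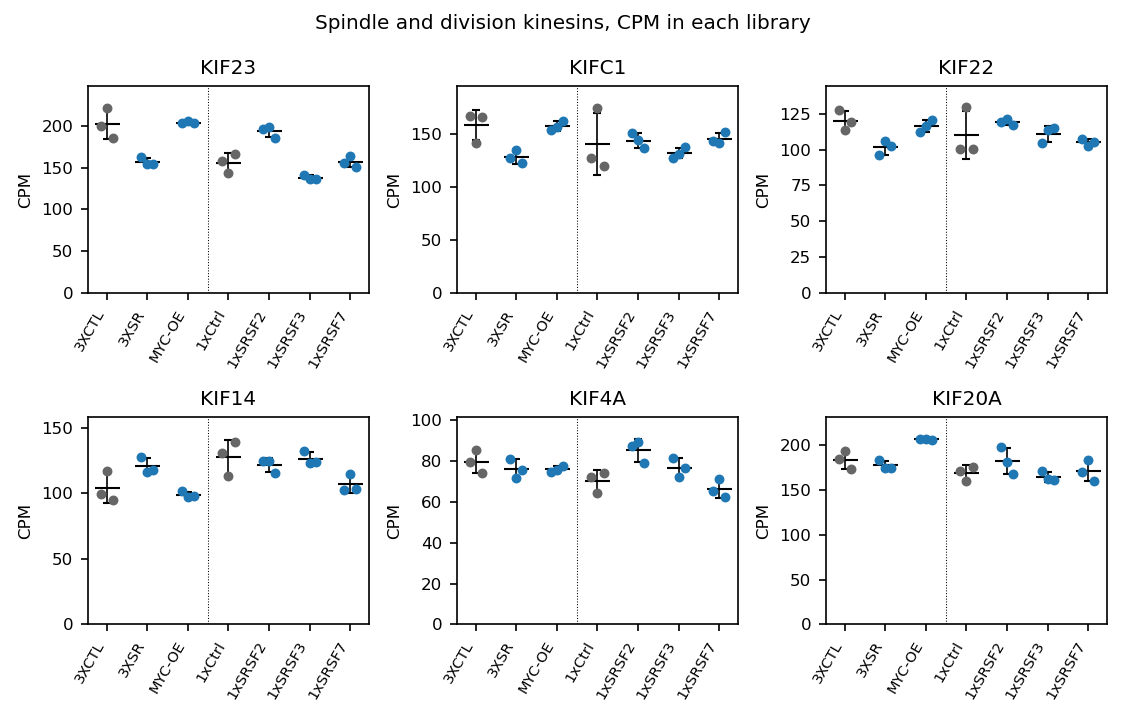
Points are CPM in single libraries of the 7 groups for 6 division kinesins (controls grey, bars mean and SD of 3, dotted line between the 2 tables, vertical axes from 0). KIF23 lies lower in 3XSR than in 3XCTL and higher in 1xSRSF2 than in 1xCtrl, and KIF14 overlaps between 3XSR and 3XCTL.

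Of the 15 cargo kinesins 8 passed in MYC-OE, the contrast with the highest share of all genes called (35.3%), 2 higher (KIF1A and KIF3C) and 6 lower (KIF1B, KIF1C, KIF3B, KIF5B, KIF13A and KIF16B). In 3XSR 4 passed (29.0% of all genes), KIF1A and KIF3A higher, KIF1C and KIF3B lower. In 1xSRSF2 5 passed (23.5% of all genes), all lower (KIF1C, KIF3A, KIF3C, KIF13B and KIF16B). In 1xSRSF3 3 passed (29.2% of all genes), KIF1A and KIF5B higher and KIF5A lower, and in 1xSRSF7 0 (17.3% of all genes). For 1xSRSF7, where edgeR called 0, 3 had an unadjusted p under 0.05, and DESeq2 and limma-voom called 0. The summed cargo level was 1220 CPM ± 22.9 (SD, n = 3) in 3XCTL, 1131 ± 43.4 in 3XSR and 1028 ± 18.8 in MYC-OE. It was 1135 ± 51.5 in 1xCtrl, 1030 ± 27.4 in 1xSRSF2, 1199 ± 43.3 in 1xSRSF3 and 1082 ± 19.5 in 1xSRSF7.

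KIF1A (ENSG00000130294.16, chromosome 2 from 240713761 to 240821036, − strand) encodes a fast motor that carries synaptic vesicle precursors along axons, and it had the highest fold changes of the kinesins with a mean of at least 1 CPM. It measured 1.20, 0.685 and 0.972 CPM in 3XCTL, 9.30, 9.38 and 8.91 in 3XSR and 5.31, 4.67 and 5.86 in MYC-OE. The 3 groups did not overlap. KIF1A rose by 3.26 on the log2 scale in 3XSR (SE 0.177, edgeR adjusted p = 1.57e-07) and in MYC-OE by 2.46 (SE 0.172, edgeR adjusted p = 7.53e-07). It was lower in MYC-OE than in 3XSR (log2 fold change -0.80, SE 0.16, edgeR adjusted p = 0.00248).

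The other control line was not low in KIF1A. The libraries of 1xCtrl measured 6.05, 10.4 and 5.40 CPM, those of 1xSRSF2 8.03, 7.87 and 7.77, those of 1xSRSF7 8.05, 6.43 and 9.13 and those of 1xSRSF3 16.4, 15.3 and 15.6. All 3 libraries of 1xSRSF3 lay above the other 9 of that table, a rise of 1.12 (SE 0.209, edgeR adjusted p = 0.00205), and 1.45 without 1xCtrl replicate 2. Against 1xCtrl, KIF1A had a log2 fold change of 0.12 in 1xSRSF2 and 0.11 in 1xSRSF7, neither past the test. With 1 scaling over all 21 libraries the group means of KIF1A were 0.956 CPM in 3XCTL, 7.31 in 1xCtrl, 9.22 in 3XSR, 5.30 in MYC-OE and 15.7 in 1xSRSF3. The means of 3XSR and MYC-OE thus lay on either side of that of 1xCtrl. The rise in both is against 3XCTL, and the control line and the table cannot be told apart. Neuronal markers were near 0, with 6 of 8 under 1 CPM in every group, 1 of them at 0 in all libraries, and a summed level from 9.08 to 12.9 CPM that came mostly from SYT1 (7.52 to 12.3 CPM). NEFL, a neurofilament gene of that list, measured 0.0702 to 0.145 CPM in 3XCTL, 1.56 to 1.97 in 3XSR and 2.05 to 2.27 in MYC-OE. In the second table it stood at 0.584 to 0.915 CPM in 1xCtrl, 2.72 to 3.11 in 1xSRSF2, 0.864 to 1.52 in 1xSRSF3 and 0.671 to 0.909 in 1xSRSF7. NEFL was thus highest in 1xSRSF2, where KIF1A did not pass the test, and SYT1, at 8.93 to 11.4 CPM in 3XCTL, was no higher in 3XSR (9.58 to 10.9) or MYC-OE (7.52 to 9.29). The part of these genes in the KIF1A result was not tested.

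KIF1C (chromosome 17 from 4997948 to 5028401, + strand), a motor of secretory vesicles and of messenger RNA, moved down in 3 contrasts. It measured 313, 273 and 320 CPM in 3XCTL, 220, 235 and 224 in 3XSR and 234, 244 and 253 in MYC-OE. Both lines lay wholly below the control. The log2 fold change was -0.42 in 3XSR (SE 0.0636, edgeR adjusted p = 0.000443) and -0.31 in MYC-OE (SE 0.0635, edgeR adjusted p = 0.00238). In 1xCtrl it stood at 219, 276 and 199 CPM and in 1xSRSF2 at 198, 181 and 189, so the highest value of 1xSRSF2 was just under the lowest of 1xCtrl. The log2 fold change was -0.29 (SE 0.0951, edgeR adjusted p = 0.0431). That call was lost without 1xCtrl replicate 1 (-0.39) or 2 (-0.15), without any one library of 1xSRSF2 (-0.30 to -0.37), with the replicate block (-0.28, edgeR adjusted p = 0.0784) and with RLE scaling, no filter, limma-voom or only the groups compared.

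The paralog KIF1B (chromosome 1 from 10210805 to 10381603), which carries mitochondria and vesicles, measured 122, 136 and 124 CPM in 3XCTL and 102, 97.8 and 101 in MYC-OE. It fell by 0.35 (SE 0.066, edgeR adjusted p = 0.00153) with no overlap. In 1xSRSF2 the value of KIF1B was just outside the threshold (-0.24, edgeR adjusted p = 0.0511). It was called lower there in 7 of 10 alternative settings and in 5 of 6 fits that left out 1 library. KIF13A (chromosome 6 from 17759183 to 17987623), a motor of recycling endosomes, went from 150, 159 and 152 CPM in 3XCTL to 122, 123 and 126 in MYC-OE, a log2 difference of -0.31 (SE 0.0566, edgeR adjusted p = 0.00103). KIF5B (chromosome 10 from 32009010 to 32056431) measured 302, 321 and 284 CPM in 3XCTL and 253, 243 and 239 in MYC-OE. It fell by 0.30 there (SE 0.0661, edgeR adjusted p = 0.00357), and these 3 calls in MYC-OE held under every alternative. In 1xSRSF3 KIF5B stood at 372, 329 and 347 CPM against 303, 253 and 308 in 1xCtrl, a rise of 0.28 (SE 0.0818, edgeR adjusted p = 0.0211). It was lost without 1xCtrl replicate 2 (0.18), without 1xSRSF3 replicate 1 (0.18) or 3 (0.23) and with upper-quartile scaling (0.21), total counts alone (0.17) or only the groups compared.

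KIF3A and KIF3B form the kinesin-2 motor of anterograde transport in cilia with the adaptor KIFAP3. KIF3A (chromosome 5 from 132692628 to 132737638) measured 21.6, 22.1 and 20.9 CPM in 3XCTL and 26.6, 23.6 and 26.0 in 3XSR, with no overlap. Its rise of 0.24 (SE 0.0615, edgeR adjusted p = 0.0126) was lost after removal of the GC trend (0.11, edgeR adjusted p = 0.139) and without 3XCTL replicate 3 (0.21) or 3XSR replicate 1 (0.20) or 3 (0.22). In 1xSRSF2 KIF3A stood at 24.2, 23.3 and 22.4 CPM against 31.7, 23.7 and 31.0 in 1xCtrl, where replicate 2 of the control lay among the 1xSRSF2 values. The log2 fold change was -0.30 (SE 0.0989, edgeR adjusted p = 0.0405), -0.43 without 1xCtrl replicate 2, -0.28 and lost without 1xCtrl replicate 1, -0.29 and lost without 1xCtrl replicate 3, and lost with the replicate block (edgeR adjusted p = 0.0642), limma-voom or only the groups compared. KIF3B, at 122, 127 and 120 CPM in 3XCTL, measured 117, 106 and 107 in 3XSR and 104, 102 and 104 in MYC-OE. It fell by 0.25 in MYC-OE (SE 0.0516, edgeR adjusted p = 0.00265) under every alternative. In 3XSR its log2 fold change was -0.16, lost without 3XSR replicate 2 or 3 (-0.14 each), with the replicate block (edgeR adjusted p = 0.0555) and with only the groups compared. KIFAP3 rose in both, by 0.28 in 3XSR (edgeR adjusted p = 0.021) and 0.46 in MYC-OE (edgeR adjusted p = 0.00093).

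KIF13B, which carries membrane scaffold proteins, measured 9.29, 10.1 and 8.41 CPM in 1xCtrl and 6.59, 7.36 and 6.59 in 1xSRSF2. All 3 libraries of 1xSRSF2 lay below the control, and KIF13B fell by 0.44 (SE 0.101, edgeR adjusted p = 0.00721) under every alternative. KIF16B, an endosome motor, went from 15.0, 15.2 and 15.7 CPM in 3XCTL to 12.4, 12.5 and 12.6 in MYC-OE, a log2 difference of -0.29 (SE 0.0665, edgeR adjusted p = 0.00473). Its value in 1xSRSF2 was -0.26, lost with the replicate block (edgeR adjusted p = 0.0803), with upper-quartile scaling or limma-voom and without 1xSRSF2 replicate 3 (-0.25). KIF3C, a kinesin-2 of neurons, had a log2 fold change of 0.20 in MYC-OE, lost without MYC-OE replicate 2 or 3 (0.19 and 0.18), with the replicate block (edgeR adjusted p = 0.05) and with total counts alone or only the groups compared. Its value was -0.19 in 1xSRSF2, lost without 1xCtrl replicate 1 or 2 (-0.25 and -0.15), without 1xSRSF2 replicate 2 or 3 (-0.21 each), with the replicate block (edgeR adjusted p = 0.0754) and with DESeq2 or only the groups compared.

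KIF5A, a neuronal heavy chain of conventional kinesin, lay at 0.215, 0.178 and 0.200 CPM in 1xCtrl and 0.132, 0.0648 and 0.115 in 1xSRSF3. Its log2 fold change was -0.91 (edgeR adjusted p = 0.0455), lost with the replicate block (edgeR adjusted p = 0.0764), with no filter, DESeq2, limma-voom or only the groups compared and without 1xCtrl replicate 1 (-0.91) or 3 (-0.95) or 1xSRSF3 replicate 2 (-0.71) or 3 (-1.04). The remaining cargo genes passed in no contrast against a control in the main test. Their group means ran from 80.3 to 129 CPM for KIFC2, 18.4 to 28.0 for KIFC3, 0.479 to 0.934 for KIF17, a kinesin of dendrites and cilia, and 0.0656 to 0.252 for KIF5C, the third conventional heavy chain. With the GC trend removed KIF17 was called in 3XSR (0.95) and 1xSRSF3 (0.55), KIFC3 in 1xSRSF2 (0.24), KIF5C in 1xSRSF7 (0.96) and KIFC2 as given above.

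**Figure D4:**
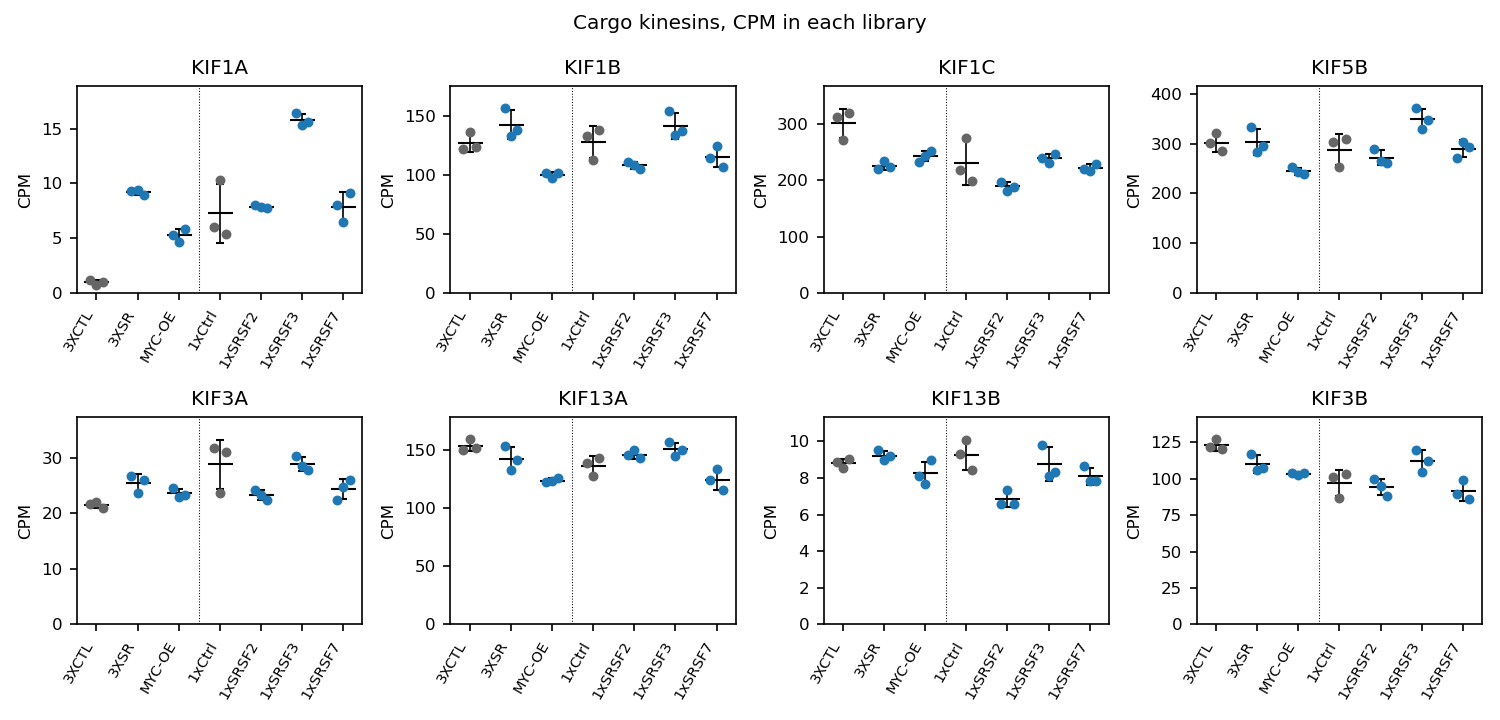
Points are CPM in single libraries of the 7 groups for 8 cargo kinesins (controls grey, bars mean and SD of 3, dotted line between the 2 tables, vertical axes from 0). KIF1A is near 1 CPM in 3XCTL alone and near 16 in 1xSRSF3, and KIF1C lies lower in 3XSR and MYC-OE than in 3XCTL.

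Of the 12 tested kinesins of other roles 7 were called in MYC-OE, where 35.3% of all genes were, with KIF2A, KIF7, KIF12, KIF19, KIF21B and KIF26B higher and KIF21A lower, and a median log2 fold change of 0.41. In 3XSR 2 passed (29.0% of all genes), both higher (KIF19 and KIF27). In 1xSRSF2 3 passed (23.5% of all genes), KIF9 higher and KIF21B and KIF27 lower. In 1xSRSF3 4 passed (29.2% of all genes), KIF9 higher and KIF12, KIF21B and KIF24 lower. In 1xSRSF7 2 passed (17.3% of all genes), KIF6 higher and KIF24 lower. Their summed level moved little, between 139 CPM ± 2.94 (SD, n = 3) in 3XCTL and 150 ± 2.80 in 1xCtrl.

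KIF21B (ENSG00000116852.14, chromosome 1 from 200969390 to 201023700, − strand) encodes a plus-end motor known from neurons and lymphocytes that limits microtubule growth. It was called higher in MYC-OE in the first table and lower in 1xSRSF2 and 1xSRSF3 in the second. In the first it measured 6.88, 6.07 and 6.93 CPM in 3XCTL, 6.46, 7.23 and 6.73 in 3XSR and 9.62, 9.43 and 10.9 in MYC-OE. MYC-OE stood wholly above, with a rise of 0.59 (SE 0.0898, edgeR adjusted p = 0.000311). In the second table it measured 10.5, 13.5 and 9.23 CPM in 1xCtrl, 7.26, 8.34 and 7.48 in 1xSRSF2, 6.08, 6.67 and 6.80 in 1xSRSF3 and 11.1, 9.57 and 11.3 in 1xSRSF7. Both 1xSRSF2 and 1xSRSF3 lay below the control and below 1xSRSF7. KIF21B fell by 0.76 in 1xSRSF3 (SE 0.127, edgeR adjusted p = 0.000574) under every alternative, and by 0.52 in 1xSRSF2 (SE 0.127, edgeR adjusted p = 0.009), where it was lost without 1xSRSF2 replicate 1 (-0.54) and with only the groups compared (-0.57, edgeR adjusted p = 0.059). The controls themselves differed. With 1 scaling over all 21 libraries the group means of KIF21B were 6.64 CPM in 3XCTL and 11.1 in 1xCtrl, 10.01 in MYC-OE and 6.46 in 1xSRSF3, so that MYC-OE lay below the mean of 1xCtrl and 1xSRSF3 near that of 3XCTL.

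KIF7 (chromosome 15 from 89608789 to 89655451, − strand), which organises the tip of the primary cilium for Hedgehog signalling, measured 10.6, 7.37 and 10.5 CPM in 3XCTL and 13.8, 13.2 and 15.2 in MYC-OE. MYC-OE was wholly above the control, by 0.57 (SE 0.125, edgeR adjusted p = 0.00379). KIF7 shares 589 of its 5001 exon bases with TICRR on the other strand. KIF12 (chromosome 9 from 114086126 to 114099291) went from 0.912, 0.675 and 1.13 CPM in 3XCTL to 1.58, 1.54 and 1.60 in MYC-OE, a rise of 0.80 (SE 0.197, edgeR adjusted p = 0.00761). In 1xSRSF3 it stood at 0.843, 1.11 and 0.933 CPM against 1.76, 2.73 and 1.26 in 1xCtrl. KIF12 fell by 1.00 there (SE 0.257, edgeR adjusted p = 0.0104), by 0.67 without 1xCtrl replicate 2, and the call was lost without 1xSRSF3 replicate 1 (-0.98) or 3 (-1.05).

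KIF27 (chromosome 9 from 83836698 to 83921465), a paralog of KIF7 that acts in motile cilia, measured 4.19, 4.54 and 3.52 CPM in 3XCTL and 5.54, 5.23 and 5.78 in 3XSR. It rose by 0.43 without overlap (SE 0.105, edgeR adjusted p = 0.00865). In 1xSRSF2 it went the other way, at 4.61, 4.76 and 4.43 CPM against 5.84, 5.73 and 6.5 in 1xCtrl, a log2 difference of -0.39 (SE 0.0993, edgeR adjusted p = 0.0124), and both calls held under every alternative. KIF9 (chromosome 3 from 47228026 to 47283451), a motor of the axoneme, measured 7.79, 7.90 and 8.04 CPM in 1xCtrl, 9.15, 10.1 and 10.03 in 1xSRSF2, 9.49, 10.04 and 10.5 in 1xSRSF3 and 7.12, 7.56 and 7.74 in 1xSRSF7. It was wholly above the control in 1xSRSF2 by 0.31 (SE 0.0779, edgeR adjusted p = 0.0121) and in 1xSRSF3 by 0.34 (SE 0.078, edgeR adjusted p = 0.00504). The first call was lost without 1xCtrl replicate 1 (0.23), without 1xSRSF2 replicate 2 or 3 (0.24 each) and with only the groups compared (0.26, edgeR adjusted p = 0.0725), the second without 1xSRSF3 replicate 3 (0.25). KIF9 shares 1048 of its 5850 exon bases with KIF9-AS1 and KLHL18 on the other strand.

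KIF24 (chromosome 9 from 34252381 to 34311371), a depolymerising kinesin of centrioles that restrains the growth of cilia, measured 28.2, 26.8 and 26.3 CPM in 1xCtrl, 21.9, 24.3 and 20.9 in 1xSRSF3 and 22.7, 21.9 and 20.0 in 1xSRSF7. Both lines lay wholly below the control. KIF24 fell by 0.28 in 1xSRSF3 (SE 0.0762, edgeR adjusted p = 0.0144) and by 0.33 in 1xSRSF7 (SE 0.0761, edgeR adjusted p = 0.00978), and both calls held under every alternative.

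The other genes of this group were near the floor or moved little. KIF19, which shortens cilia, had 7, 0 and 14 counts in 3XCTL, 40, 46 and 30 in 3XSR and 52, 39 and 92 in MYC-OE. Like KIF1A it was low in 3XCTL alone, since 1xCtrl had 33, 173 and 64 counts. The log2 fold changes were 2.63 in 3XSR (edgeR adjusted p = 0.0176), lost without 3XCTL replicate 1 (2.48) or 3XSR replicate 1 (2.64) or 2 (2.58), and 2.92 in MYC-OE (edgeR adjusted p = 0.00782). The filter of at least 10 counts in every library left KIF19 untested in both. KIF6 had 44, 34 and 56 counts in 1xSRSF7 and 0, 8 and 6 in 1xCtrl, a log2 fold change of 2.86 (edgeR adjusted p = 0.0198), lost without 1xSRSF7 replicate 1 (2.76) or 3 (2.79). DESeq2 did not call KIF6, and the filter of at least 10 counts in every library left it untested. In MYC-OE, KIF26B, a kinesin of development without motor activity, was higher by 1.13 at 0.142 to 0.224 CPM, lost without 3XCTL replicate 3 (1.02) or MYC-OE replicate 2 (1.07) or 3 (0.99). KIF2A, a microtubule depolymeriser that shares 428 exon bases with IPO11 on its own strand, was higher by 0.23, lost with total counts alone and without 3XCTL replicate 3 (0.21) or MYC-OE replicate 1 (0.19). KIF21A had a log2 fold change of -0.25 there, lost without MYC-OE replicate 2 (-0.24) or 3 (-0.23). KIF26A, with means from 1.53 to 2.46 CPM, passed in no contrast against a control.

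**Figure D5:**
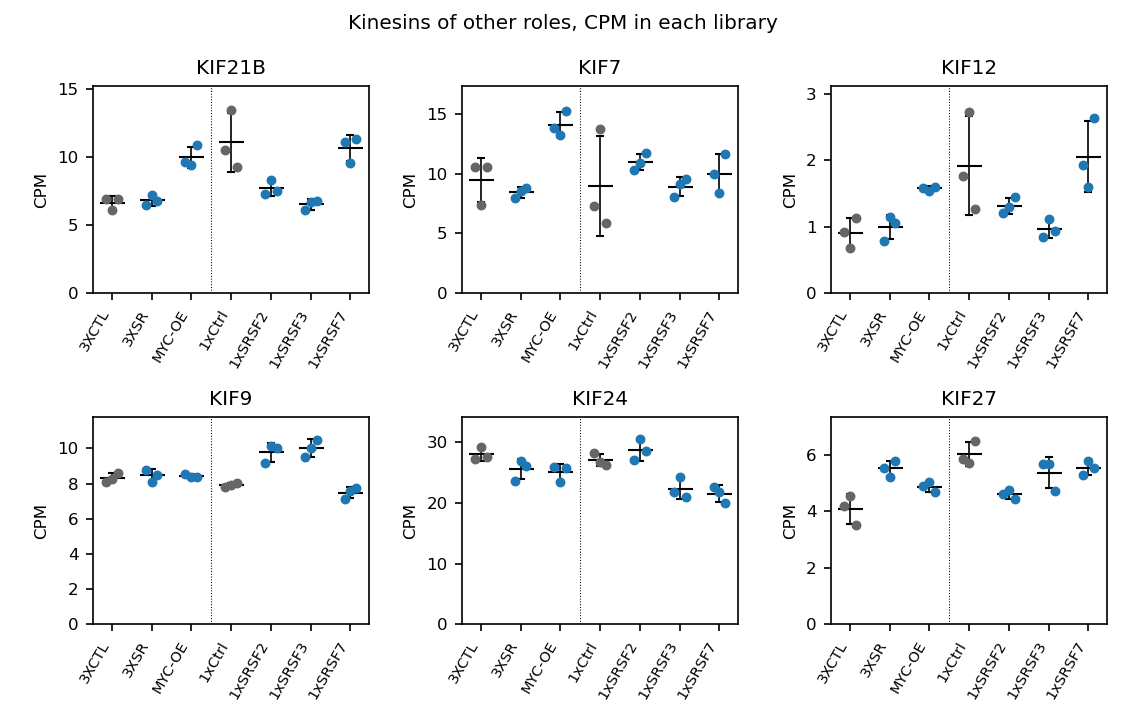
Points are CPM in single libraries of the 7 groups for 6 kinesins of other roles (controls grey, bars mean and SD of 3, dotted line between the 2 tables, vertical axes from 0). KIF21B is high in MYC-OE and low in 1xSRSF2 and 1xSRSF3 against their controls, and KIF24 is lower in 1xSRSF3 and 1xSRSF7 than in 1xCtrl.

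Compared directly, MYC-OE and 3XSR differed in 15 kinesins, 8 higher and 7 lower in MYC-OE, where 34.9% of all genes tested were called (17.3% higher and 17.6% lower). Both lines had raised MYC, as given above. Among the division genes KIF23 (log2 fold change 0.38, SE 0.0605, edgeR adjusted p = 0.000571), KIFC1 (0.30), KIF22 (0.20) and KIF20A (0.22) were higher in MYC-OE and KIF14 lower (-0.28). Among the called cargo genes KIF1B had the log2 fold change furthest below 0 after KIF1A, at -0.51 (SE 0.0661, edgeR adjusted p = 0.000137). KIF7 was higher in MYC-OE by 0.74 (SE 0.125, edgeR adjusted p = 0.000813) and KIF21B by 0.55.

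Among the single lines, 1xSRSF3 differed from 1xSRSF7 in 13 kinesins, 8 higher and 5 lower, where 35.2% of all genes were called (17.8% and 17.3%). 1xSRSF2 differed from 1xSRSF3 in 12, 3 higher and 9 lower, against 26.8% of all genes (12.6% and 14.1%), and from 1xSRSF7 in 8, 6 higher and 2 lower, against 24.2% (11.5% and 12.8%). Between 1xSRSF2 and 1xSRSF3, 8 of the 15 cargo kinesins were lower in 1xSRSF2 and 1 (KIF5A) higher. The lean to lower values depended on the setting, since the split over all kinesins was 6 higher and 4 lower with total counts alone, 3 and 4 with upper-quartile scaling, 11 and 10 with the GC trend removed and 13 and 9 with only the groups compared. It was 5 and 3 without 1xSRSF2 replicate 3 and 3 and 3 without 1xSRSF3 replicate 1. For 1xSRSF2 against 1xSRSF7 the split was 6 and 5 with total counts alone, and for 1xSRSF3 against 1xSRSF7 it turned to 3 higher and 5 lower. KIF23 was higher in 1xSRSF2 than in 1xSRSF3 by 0.49 (SE 0.0632, edgeR adjusted p = 0.000115) and than in 1xSRSF7 by 0.30 (SE 0.0631, edgeR adjusted p = 0.00374). KIF9 was higher in 1xSRSF3 than in 1xSRSF7 by 0.42 (SE 0.0779, edgeR adjusted p = 0.000929). KIF24 differed from 1xSRSF2 in both, and was higher in 1xSRSF2 by 0.36 over 1xSRSF3 and by 0.42 over 1xSRSF7.

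Whether the change in 3XSR equalled the sum of the 3 single changes was tested in a joint fit over all 21 libraries, which crosses the 2 tables and their controls. Of the 40 kinesins 8 departed from the sum, 6 above and 2 below it, against 19.9% of all genes tested (11.3% and 8.59%). The split was 5 above and 6 below without 1xCtrl replicate 2 and 9 and 7 with the GC trend removed, while all 8 calls with total counts alone, all 6 with upper-quartile scaling and all 4 without 1xCtrl replicate 1 were above. The change in 3XSR was above the sum by 1.96 for KIF1A (SE 0.537, edgeR adjusted p = 0.0155), 1.42 for KIF21B (SE 0.301, edgeR adjusted p = 0.00222), 1.13 for KIF27 (SE 0.25, edgeR adjusted p = 0.00297), and 0.81 for KIF3A, 0.81 for KIF13B and 0.58 for KIF14. For KIF23 and KIF9 it was below the sum, by a log2 difference of -0.49 (SE 0.158, edgeR adjusted p = 0.0331) and -0.51 (SE 0.169, edgeR adjusted p = 0.0384). The median of the 40 was 0.12 and that of all genes 0.14. Each single change enters against 1xCtrl, whose replicate 2 is described above.

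Genes that work with the kinesins were followed in 6 lists, whose counts stand beside shares of all genes called of 29.0%, 35.3%, 23.5%, 29.2% and 17.3% in 3XSR, MYC-OE, 1xSRSF2, 1xSRSF3 and 1xSRSF7. Of 20 light chains and adaptors, 4 were called in 3XSR, 8 in MYC-OE, 4 in 1xSRSF2, 5 in 1xSRSF3 and 0 by edgeR in 1xSRSF7 (1 at an unadjusted p under 0.05), with medians from -0.10 to 0.07. In the first 4 contrasts 3, 4, 2 and 4 of these were higher. FEZ1, an adaptor of conventional kinesin, rose by 0.74 in 3XSR (SE 0.0729, edgeR adjusted p = 1.47e-05), 0.68 in MYC-OE and 0.75 in 1xSRSF3. Of 20 partners of the division kinesins, 9, 8, 9, 6 and 2 were called in the same order, and 4, 7, 8, 5 and 2 of these were higher. AURKA, a kinase of spindle poles, rose by 0.50 in 3XSR, 0.67 in MYC-OE, 0.51 in 1xSRSF2 and 0.45 in 1xSRSF3, the 2 table controls measuring 87.2 and 104 CPM as means.

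Of 25 genes of dynein and dynactin, the minus-end motor, 7, 9, 6, 8 and 5 were called, of which 5, 4, 4, 7 and 4 were higher. DYNC1I2 rose in all 5 contrasts, by 0.46 to 0.92, as did DYNLRB1 by 0.43 to 0.79, and these share controls. DYNC1LI2 was lower in MYC-OE (-0.55), and HOOK2 in 1xSRSF2 (-0.47) and 1xSRSF3 (-0.65). Among 16 tubulins 5, 4, 6, 5 and 6 were called, of which 2, 3, 4, 2 and 5 were higher. TUBB4A was higher by 1.43 in 3XSR and 2.52 in MYC-OE at means of at most 3.29 CPM. TUBB was lower in 3XSR (-0.22), at a mean of 1650 CPM against 1918 in 3XCTL. Among 28 tested microtubule-associated proteins and tubulin modifiers 12, 15, 10, 13 and 10 were called, of which 10, 10, 6, 7 and 7 were higher. MAPRE2, a plus-end tracking protein, rose by 1.48 in 3XSR (SE 0.0968, edgeR adjusted p = 5.71e-07) and 2.49 in MYC-OE (SE 0.0992, edgeR adjusted p = 5.68e-09). Of 24 genes of intraflagellar transport and Hedgehog signalling, in which KIF3A, KIF3B and KIF7 act, 8, 10, 7, 12 and 5 were called. Of these 3, 6, 2, 3 and 2 were higher. GLI1, a target of that signalling, fell by 0.44 in 3XSR, 0.74 in MYC-OE, 0.73 in 1xSRSF2 and 1.05 in 1xSRSF3, at 2.39 to 5.38 CPM. Other genes of the list went the other way. SMO rose by 0.75 in MYC-OE and 0.62 in 1xSRSF7, and IFT57 by 0.60 in 3XSR, 0.79 in MYC-OE and 0.35 in 1xSRSF2.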

How the data were processed

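Whole-number counts of reads per gene were deposited by the authors as 2 tables of 60668 genes. Trimmomatic 0.39, STAR, StringTie 2.1.3b and GRCh38.p13 are named in the submitters' processing notes, without their roles. The strand setting of the counting is not given in the sources used here. Libraries were polyA-selected and stranded, per the labels' protocols, and were grouped by their titles. All 21 were used, and depth was 143269192 to 303323552 counts per library.

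The test was that of edgeR 4.0.16 under R 4.3.3 (filterByExpr with a minimum count of 10 and a minimum total of 15, TMM scaling, robust glmQLFit, quasi-likelihood F test) in 1 fit per table over all its groups, and over all 21 libraries for the sum of the single effects. P-values were adjusted by Benjamini-Hochberg over all genes tested, with a threshold of 0.05, for changes in either direction. The standard error is the absolute log2 fold change divided by the square root of F. CPM use TMM-scaled library sizes within a table. Positions, exon lengths and GC content came from GENCODE 29, matched by gene identifier and not by coordinate, and promoters from RefSeq. Symbols came from a separate list of gene names, matched by identifier. GENCODE 29 held 58561 of the identifiers, and genes without a GC value were left uncorrected when the GC trend was removed.

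The kinesins given in full were those called in a contrast against a control and among the 4 highest or 4 lowest log2 fold changes of called kinesins with a mean of at least 1 CPM over both groups. From each other list at most 3 called genes a contrast could be named, those of the largest absolute log2 fold change. The members and lists were chosen with earlier results of these data known. Alternatives were RLE, upper-quartile and unscaled library sizes, no filter or at least 10 counts in every library, DESeq2 1.42.0, limma-voom (limma 3.58.1), the replicate number as a block, removal of each library's GC trend in 50 bins, a fit of only the groups compared, and leaving out each library.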

Additional observations from a re-analysis of the deposited data

How the results depend on the processing

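Values of single kinesins were followed for the calls against a control and, in all 5 contrasts, for the kinesins given in full. Of these, 1501 kept their direction and their side of the threshold, 99 were weaker, 57 stronger and 3 reversed. Other kinesins were left out of this tally, and some gained calls, such as KIF11 in 3XSR with the GC trend removed (-0.31). The reversed ones were KIF5B in 3XSR after removal of the GC trend (-0.12, edgeR adjusted p = 0.0386) and KIF7 in 1xSRSF3 after removal of the GC trend (0.25, edgeR adjusted p = 0.0101) or without 1xCtrl replicate 2 (0.42, edgeR adjusted p = 0.0339; its value was -0.30 without replicate 3), and none of these had been called. Of the 46 calls, 23 held wherever the gene was tested, 3 were lost with the GC trend removed and 9 with the replicate block.

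The number of called kinesins moved by over 1.5 times in the following settings. With the GC trend removed it was 17 in 3XSR, 18 in 1xSRSF2, 16 in 1xSRSF3, 8 in 1xSRSF7, 21 for 1xSRSF2 against 1xSRSF3, 25 for 1xSRSF2 against 1xSRSF7 and 16 for the sum of the single effects. A fit of only the groups compared gave 22 for 1xSRSF2 against 1xSRSF3 and 20 for 1xSRSF2 against 1xSRSF7, upper-quartile scaling gave 7 for 1xSRSF2 against 1xSRSF3, and total counts alone gave 8 for 1xSRSF3 against 1xSRSF7, and the replicate block gave 6 in 1xSRSF2 (10 without it). The causes were not tested.

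Leaving out 1 library at a time gave 7 to 17 called kinesins in 3XSR, 12 to 21 in MYC-OE, 7 to 18 in 1xSRSF2, 4 to 10 in 1xSRSF3 and 1 to 14 in 1xSRSF7. It gave 11 to 14 for MYC-OE against 3XSR, 6 to 12 for 1xSRSF2 against 1xSRSF3, 6 to 8 for 1xSRSF2 against 1xSRSF7, 9 to 14 for 1xSRSF3 against 1xSRSF7 and 4 to 11 for the sum. A fit of only 2 groups is not possible for the sum.

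Blocking by replicate number gave counts of 9 in 3XSR, 15 in MYC-OE, 6 in 1xSRSF2 as above, 6 in 1xSRSF3 and 2 in 1xSRSF7. The replicate block gave 15 for MYC-OE against 3XSR, 8 for 1xSRSF2 against each of 1xSRSF3 and 1xSRSF7, 10 for 1xSRSF3 against 1xSRSF7 and 7 for the sum. Deviations of same-numbered libraries from their group means correlated between -0.19 and 0.0543, so no pairing by number was visible in them. These correlations cannot tell whether same-numbered libraries were handled together.

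At these depths 3 counts stand for 0.00947 to 0.0210 CPM, and KIF2B, KIF4B, KIF6, KIF19 and KIF25 had 3 counts or fewer in at least 1 library.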
